A study of Mus musculus with 6 samples.

Results

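Aire, Fezf2 and 5 genes tied to them were followed across 3 sorted populations of mouse thymic epithelial cells (TEC), the stroma on which T cells mature and are selected. The 7 genes, Aire, Fezf2, Deaf1, Hipk2, Sirt1, Chd4 and Prkdc, were taken by name. All probes with a listed gene as their gene name, older synonyms included, made up the set: 14 of the 41174 probes and 7 of the 28032 genes named on the array. Aire, Fezf2 and Prkdc had 1 probe each, Sirt1 2, and Deaf1, Hipk2 and Chd4 3 each. Of the 14 probes, 13 were well above background on both arrays of at least 1 population and were tested. The remaining probe was 1 of the 3 for Deaf1. A gene with several tested probes was represented by the brightest on average.

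All cells came from C57BL/6 mice aged 4 weeks that carried the Meis1-EGFP BAC transgene Tg(Meis1-EGFP)FO156Gsat/Mmcd, in which EGFP is read from Meis1 regulatory sequence, so the reporter is common to every group and no group lacks it. CD45- EpCAM+ TEC were split into Meis1-high cells (EGFPhigh FSClow, small and bright), Meis1-low cells (EGFPint FSChigh, large and intermediate) and Meis1-negative cells (EGFP- FSClow, small and without EGFP). Each gate was sampled as 2 pools of 6 mice, each pool on 1 one-colour array after amplification of a small amount of RNA. The gates differ in cell size as well as in reporter, and a pool hides the spread between its mice. Replicate 1 of every gate was on slide 1 and replicate 2 on slide 2. The p-values measure only the spread between these pools. A level is the log2 of a probe's signal over the 75th percentile of its array, and differences are log2 differences of these levels.

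Medullary TEC express very many genes that are otherwise restricted to single tissues, so that T cells reactive to those products can be deleted or diverted in the thymus. Aire, a nuclear protein with SAND and PHD domains, acts mainly in mature, MHC class II-high medullary cells and releases such genes from a weakly transcribed state, together with a large set of partner proteins. Fezf2 is a zinc finger transcription factor that drives a separate set of tissue-restricted genes in the same compartment. Deaf1 is a SAND domain transcription factor linked to peripheral tissue antigens in lymph nodes. Hipk2 is a kinase that phosphorylates Aire, Sirt1 a deacetylase that removes acetyl groups from Aire, Chd4 the ATPase of the NuRD chromatin remodelling complex, and Prkdc the catalytic subunit of DNA-dependent protein kinase, which binds Aire.

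The sequences shown are those of promoters and of probes by which members were measured. The promoters are those of Aire, Fezf2 and Sirt1, the 3 members with the widest differences, and their part in these differences was not tested. Promoter windows run from 250 bases before to 50 bases after the start and are from RefSeq on GRCm38.p6, where 6 of the 7 members matched an entry. Capitals mark matches to TATAAA (the TATA box), CCAAT (the CCAAT box, ATTGG on the other strand) and CACGTG (an E-box), and both strands were searched.
Aire promoter, chr10:78043561-78043860, minus strand: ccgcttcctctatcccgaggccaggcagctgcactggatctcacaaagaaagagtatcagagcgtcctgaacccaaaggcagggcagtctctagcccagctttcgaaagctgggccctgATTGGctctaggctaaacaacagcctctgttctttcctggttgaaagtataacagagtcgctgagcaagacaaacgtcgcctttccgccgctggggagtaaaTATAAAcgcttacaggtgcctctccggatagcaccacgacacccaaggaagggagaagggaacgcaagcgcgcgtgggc
Fezf2 promoter, chr14:12345816-12346115, minus strand: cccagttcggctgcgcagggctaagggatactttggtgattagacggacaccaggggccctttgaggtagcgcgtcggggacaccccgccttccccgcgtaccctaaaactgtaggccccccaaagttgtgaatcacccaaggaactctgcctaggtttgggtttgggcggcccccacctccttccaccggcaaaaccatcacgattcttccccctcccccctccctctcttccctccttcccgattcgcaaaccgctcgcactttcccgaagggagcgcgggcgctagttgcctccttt
Sirt1 promoter, chr10:63338986-63339285, minus strand: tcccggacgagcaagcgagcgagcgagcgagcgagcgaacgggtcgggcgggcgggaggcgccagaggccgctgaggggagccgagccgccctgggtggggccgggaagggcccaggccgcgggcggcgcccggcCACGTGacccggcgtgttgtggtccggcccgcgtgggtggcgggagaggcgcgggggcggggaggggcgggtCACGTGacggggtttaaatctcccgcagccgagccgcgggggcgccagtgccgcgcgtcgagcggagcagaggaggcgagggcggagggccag

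The Aire window held TATAAA at position -29 and a CCAAT box at -131 from the start. Among 32851 promoter windows of the same length, 13.6% held TATAAA and 37.4% CCAAT. No other member window held TATAAA. The Sirt1 window held 2 matches to CACGTG, the first at -115, a sequence found in 7.15% of all windows, and no other member window held it. GGGCGG (the GC box), present in 35.7% of windows, had 0 matches in Aire, 1 in Fezf2 and 7 in Sirt1. These matches describe letters in the windows only.

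Probe sequences are shown for Fezf2 and for Sirt1, Hipk2, Deaf1 and Chd4 probes that are set against another probe of the same gene, with positions on mm9 as the files give them. Capitals are not used in them.
Fezf2 A_51_P206489, chr14:13175057-13175116, minus strand: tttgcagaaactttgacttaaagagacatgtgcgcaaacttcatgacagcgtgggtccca
Sirt1 A_52_P358612, chr10:62799756-62799815, minus strand: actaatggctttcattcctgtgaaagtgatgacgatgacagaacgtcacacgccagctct
Deaf1 A_51_P275658, chr7:148500838-148507018, minus strand: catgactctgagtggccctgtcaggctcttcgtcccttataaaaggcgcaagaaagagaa
Deaf1 A_52_P456977, chr7:148487506-148487565, minus strand: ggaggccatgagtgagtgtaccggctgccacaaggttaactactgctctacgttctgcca
Hipk2 A_51_P318292, chr6:38653626-38653685, minus strand: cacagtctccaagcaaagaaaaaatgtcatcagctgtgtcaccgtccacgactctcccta
Hipk2 A_52_P554845, chr6:38693102-38693161, minus strand: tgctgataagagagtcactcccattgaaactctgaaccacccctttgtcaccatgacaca
Chd4 A_51_P454280, chr6:125064080-125064139, plus strand: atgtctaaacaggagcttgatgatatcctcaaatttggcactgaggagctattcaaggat
Chd4 A_52_P298043, chr6:125047264-125050525, plus strand: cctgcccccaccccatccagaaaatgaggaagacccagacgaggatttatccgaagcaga
Chd4 A_52_P58281, chr6:125073647-125078816, plus strand: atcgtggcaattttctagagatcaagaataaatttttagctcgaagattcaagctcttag

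The Chd4 probes A_52_P298043 and A_52_P58281 and the Deaf1 probe A_51_P275658 cover more genome than their own length, so that each joins separate stretches of its gene. A_52_P456977 is the representing probe of Deaf1, and A_52_P58281 that of Chd4. The Aire probe (A_51_P376127) lies at chr10:77492823-77492882, and the brighter Sirt1 probe (A_51_P141152) at chr10:62782250-62782309, both on the minus strand, as does the representing Hipk2 probe (A_51_P125316) at chr6:38637623-38637682. These 3 are given by position only. Exon and UTR annotation on mm9 was not used here.

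The signal at the 75th percentile ranged from 73.3 to 165.2 over the arrays. Meis1-negative replicate 1 stood apart from all other arrays. Of 19 measured thymocyte and T cell markers, 16 were higher on it than on Meis1-negative replicate 2, with a median log2 difference of 4.46. The log2 of their summed signal was 10.3 on this array and 5.12 on replicate 2, against 3.71 and 3.80 on the Meis1-high arrays and 3.85 and 4.52 on the Meis1-low arrays. All 19 were well above background on both Meis1-negative arrays, and 14 to 18 on the other arrays. Ptprc, the gene of CD45, which the sort gated against, read 5.16 and 3.17 on the Meis1-negative arrays and at most 0.43 elsewhere. All 10 epithelial markers were lower on Meis1-negative replicate 1 than on replicate 2, by a median of -1.95, although the EpCAM gene Epcam was well above background on every array. Meis1, which the reporter follows, was highest on the Meis1-high arrays (0.24 and 0.12), with -2.35 and -1.61 for Meis1-low and -3.20 and -0.99 for Meis1-negative. Differences from Meis1-negative are therefore also given without its replicate 1.

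Aire had its highest levels in the large, Meis1-low cells. Meis1-low arrays gave levels of 3.87 and 4.65 (replicate 1, then replicate 2), Meis1-negative arrays 1.22 and 3.84, and Meis1-high arrays 1.19 and 2.69. Both Meis1-low arrays lay above all other arrays. The gate means were 4.26 ± 0.55 (SD, n = 2) in Meis1-low, 2.53 ± 1.85 in Meis1-negative and 1.94 ± 1.06 in Meis1-high. The order of Meis1-negative and Meis1-high cannot be read beyond their spread.

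Fezf2 was also highest in Meis1-low, with the Meis1-high gate next. Meis1-low arrays gave levels of 3.48 and 2.73, Meis1-high arrays 2.92 and 1.85, and Meis1-negative arrays 0.52 and 2.17. The Meis1-high and Meis1-low arrays overlapped, and the lowest level was that of Meis1-negative replicate 1. Gate means were 3.11 ± 0.53 in Meis1-low, 2.38 ± 0.76 in Meis1-high and 1.35 ± 1.16 in Meis1-negative (SD, n = 2). Meis1-low and Meis1-high, neighbours in this order, differed by less than the SD of Meis1-high, as Meis1-high and Meis1-negative did by less than that of Meis1-negative.

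Sirt1 ordered the gates as Aire did. Its brighter probe read 3.66 and 3.49 on Meis1-low arrays, 1.64 and 3.04 on Meis1-negative arrays, and 1.16 and 1.86 on Meis1-high arrays. Both Meis1-low arrays were highest, Meis1-negative replicate 2 came next, then Meis1-high replicate 2 and Meis1-negative replicate 1, with Meis1-high replicate 1 lowest. Gate means were 3.57 ± 0.12 in Meis1-low, 2.34 ± 0.99 in Meis1-negative and 1.51 ± 0.50 in Meis1-high (SD, n = 2), the latter pair closer than the SD of Meis1-negative. Aire gave this order of arrays too, except that its 2 Meis1-low arrays changed places. The second Sirt1 probe, whose sequence is given above, read 2.25 and 2.45 on Meis1-low arrays, 0.74 and 2.03 on Meis1-negative arrays, and 0.79 and 1.11 on Meis1-high arrays. It therefore also put both Meis1-low arrays on top.

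Deaf1 and Chd4 had their lowest gate means in Meis1-low. The representing Deaf1 probe read -1.84 and -2.64 on Meis1-low arrays, -1.69 and -2.08 on Meis1-negative arrays, and -1.72 and -1.56 on Meis1-high arrays. The representing Chd4 probe read 1.24 and 1.83 on Meis1-low arrays, 2.59 and 2.18 on Meis1-negative arrays, and 1.77 and 2.26 on Meis1-high arrays. The Meis1-low arrays lay below both Meis1-high arrays for Deaf1, and below both Meis1-negative arrays for Chd4. This Chd4 probe ran roughly opposite to Fezf2. It was highest where Fezf2 was lowest, on Meis1-negative replicate 1, and lowest where Fezf2 was highest, on Meis1-low replicate 1.

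Hipk2, by its representing probe, and Prkdc varied little. The representing Hipk2 probe stayed between 3.79 and 4.27 on all 6 arrays, and its SD over the arrays, 0.18, was larger than that of only 0.698% of the genes tested. The lowest and highest Prkdc levels, -2.01 and -1.02, were those of the 2 Meis1-high arrays, so that its widest gap was between replicates of 1 gate. The Prkdc probe was printed 10 times on each array, and these spots had SDs of 0.11 to 0.13, smaller than the 0.98 between the Meis1-high replicates. The SD over arrays was 1.46 for Aire, 1.05 for Sirt1, 1.03 for Fezf2, 0.47 for Chd4, and 0.39 for Deaf1 and for Prkdc, against a median of 0.85 over all genes.

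**Figure D1:**
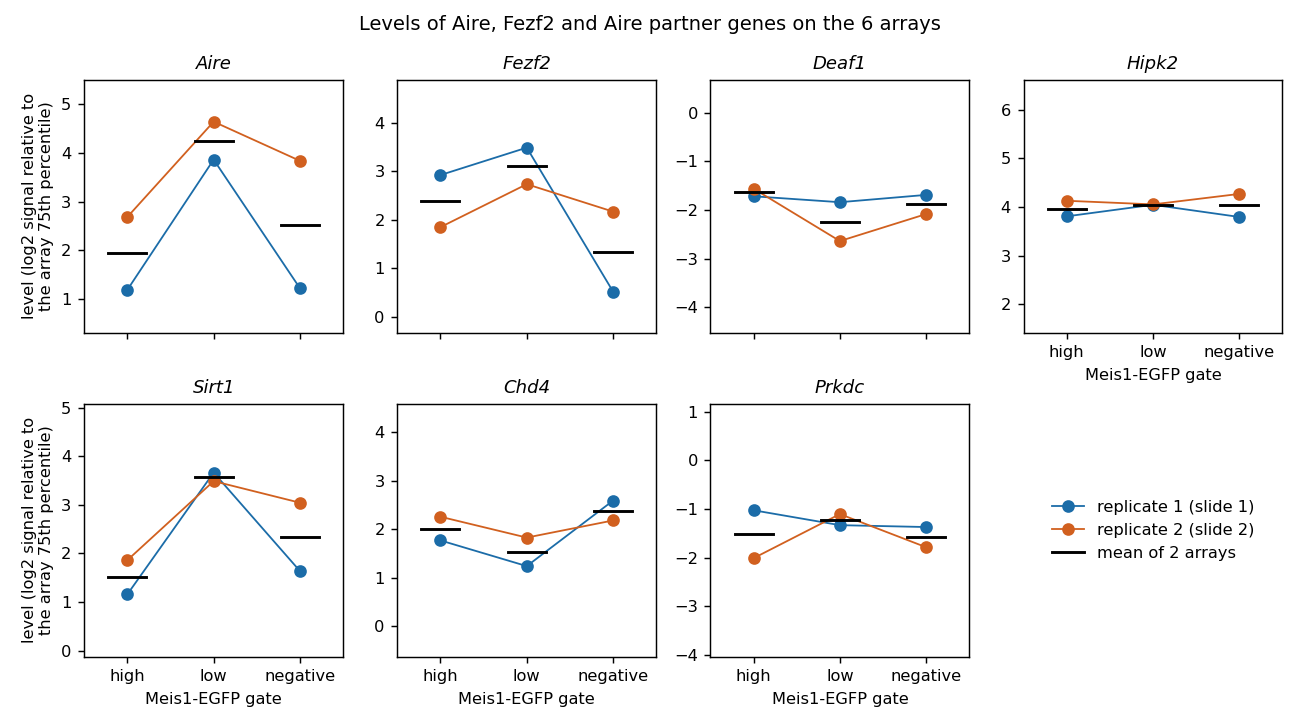
Level (log2 signal relative to the array's 75th percentile) of the representing probe of each gene by Meis1-EGFP gate; each point is 1 array, lines join the arrays of a slide, and black bars are means of 2 arrays. All panels span the same number of log2 units. Aire and Sirt1 peak in Meis1-low on both slides, while Hipk2 stays between 3.79 and 4.27.

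Meis1-high against Meis1-low sets small, bright cells against large, intermediate ones. Aire was 4.99-fold lower in Meis1-high by its mean, a log2 difference of -2.32 ± 0.996 (SE, n = 2 per gate, 95% interval -4.65 to 0.01). Slide 1 gave -2.68 and slide 2 gave -1.96. It did not pass the threshold (adjusted p = 0.387, limma with Benjamini-Hochberg adjustment over 18207 genes). In bulk pools, fewer Aire-expressing cells and less Aire RNA per cell cannot be told apart.

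Sirt1 was 4.18-fold lower in Meis1-high, a log2 difference of -2.06 ± 0.71 (95% interval -3.72 to -0.41, adjusted p = 0.306 in limma), with -2.50 and -1.62 on the slides. It was the 1 member with an unadjusted p under 0.05 in limma. Its second probe gave -1.40 ± 0.68 in a fit of all probes, with -1.46 and -1.34 on the slides (adjusted p = 0.465 in limma). Both probes thus lay lower in Meis1-high on each slide.

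With normexp background correction and an offset of 50, in place of the scanner's own processed signal, both differences passed the threshold. The value of Aire was then -2.11 with an adjusted p = 0.0155, in a range of 0.0155 to 0.9999 over 17 alternatives. Sirt1 had an adjusted p = 0.0390, in a range of 0.0390 to 0.9999. The direction of both genes was the same in all 17 alternatives. The offset compares with 75th percentiles of 73.3 to 165.2 in the processed signal. Its part in the values given with normexp was not tested apart from the background correction.

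For the other members the 95% intervals of this comparison included 0. Fezf2 was lower by -0.72 ± 0.79 (-0.56 and -0.88 on the slides, 95% interval -2.58 to 1.14, adjusted p = 0.744 in limma), and by -1.26 without Meis1-high replicate 1 but -0.19 without replicate 2. Deaf1 was higher by 0.60 ± 0.62 (0.12 and 1.08 on the slides) and Chd4 by 0.48 ± 0.62 (0.53 and 0.43), with 95% intervals of -0.86 to 2.06 and -0.97 to 1.93. Deaf1 differed by 0.20 without Meis1-low replicate 2 and by 0.998 without replicate 1, and Chd4 by 0.77 and 0.18. The intervals for Hipk2, -1.47 to 1.31, and Prkdc, -1.80 to 1.204, leave room for more than a doubling either way.

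The arrays of the 2 gates did not overlap for 3 of the 7 members. Deaf1 was higher in Meis1-high, as were 22.7% of all genes tested, and Aire and Sirt1 were lower, as were 31% of all genes. The members' share is thus near that of the whole array. No gene on the array passed the adjusted threshold in either direction in limma (0%), while 855 genes (4.7%) were higher and 1503 (8.26%) lower at an unadjusted p under 0.05.

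Marker lists lay on both sides beside Aire. All 10 genes marking immature medullary cells were higher in Meis1-high than in Meis1-low without overlap, against 22.7% of all genes tested. This list, like the others, was chosen with earlier results of these data known, so its share is not a test. The median log2 difference of the 10 genes was 1.94 (1.07 with normexp). Among them, the chemokine gene Ccl21a differed by 3.34 ± 0.79 and the LIF receptor gene Lifr by 3.72 ± 0.79, and none passed the threshold. The log2 of their summed signal was 9.03 and 8.91 on the Meis1-high arrays against 7.09 and 6.64 on the Meis1-low arrays. Of 10 cortical TEC genes 6 were higher in Meis1-high, 5 without overlap, with a median of 1.13, which was 0.41 with normexp and 0.55 without Meis1-high replicate 2.

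Other lists lay lower in Meis1-high. All 24 cell cycle genes did, with a median log2 difference of -1.44 (-0.83 with normexp), as did 9 of 11 dendritic cell and macrophage genes (median -1.69), 7 of 8 B cell genes (-1.55) and all 7 erythroid genes (-2.17). The median over all genes was -0.15. Of 11 dendritic cell and macrophage genes, 6 and 8 were well above background on the Meis1-high arrays, and 11 on each Meis1-low array. For B cell genes these counts were 5 and 5 against 7 and 7, and for erythroid genes 2 and 4 against 7 and 7. Genes that passed the filter only through another gate were likely to lie lower in Meis1-high. The direction and medians of these lists are thus set in part by the filter. With normexp the dendritic cell, B cell and erythroid medians were -0.49, -0.47 and -1.06, and the B cell median was -0.93 without Meis1-high replicate 2. The 19 thymocyte markers had a median of -0.27, which was 0.38 without Meis1-high replicate 1, and 7 of them were higher. The part of these cell types in the Aire and Sirt1 differences was not tested.

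**Figure D2:**
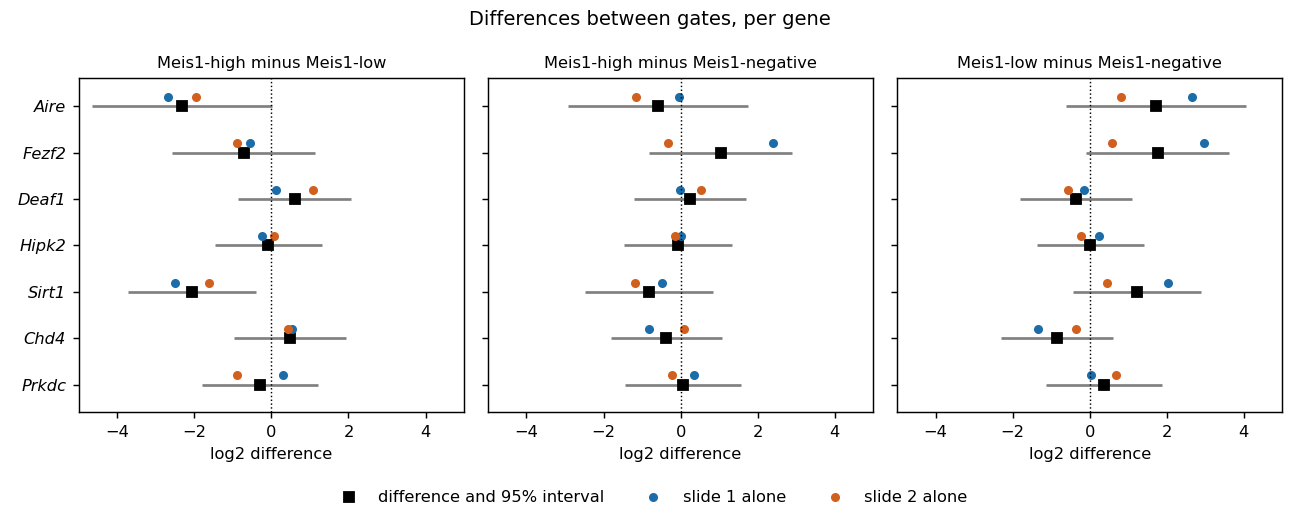
Log2 difference of each member in the 3 comparisons, first gate minus second. Squares are means with 95% intervals from limma, and coloured points are the differences within slide 1 and slide 2. The Sirt1 interval in Meis1-high minus Meis1-low (-3.72 to -0.41) is the 1 interval that does not include 0.

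Meis1-low was then compared with Meis1-negative cells, which are small and carry no reporter signal. These comparisons share arrays with each other and are not independent. Aire was higher in Meis1-low by 1.72 ± 0.996 (adjusted p = 0.625 in limma), with 2.64 on slide 1 and 0.80 on slide 2. Fezf2 was higher by 1.76 ± 0.79 (adjusted p = 0.607 in limma), with 2.96 and 0.56. Sirt1 was higher by 1.23 ± 0.71 (adjusted p = 0.624 in limma), with 2.02 and 0.44, and its second probe by 0.97 ± 0.68.

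Each of these differences was larger on slide 1, which holds the Meis1-negative array with the high thymocyte markers. Without Meis1-negative replicate 1, Aire differed by 0.41, Fezf2 by 0.94 and Sirt1 by 0.53. Without Meis1-negative replicate 2, they differed by 3.03 (adjusted p = 0.0764 in limma), 2.58 (0.0848) and 1.94 (0.113). All 19 thymocyte markers were lower in Meis1-low than in Meis1-negative by their means, with a median of -3.15 (-1.27 without Meis1-negative replicate 1). On the Meis1-low arrays 17 and 18 of them were well above background, so the filter set this direction in part. The part of these markers in the members' differences was not tested.

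Chd4 was lower in Meis1-low than in Meis1-negative by -0.85 ± 0.62 (adjusted p = 0.686 in limma), with -1.35 and -0.35 on the slides. It differed by -0.65 without Meis1-negative replicate 1 and by -1.05 without replicate 2. Prkdc was higher by 0.36 ± 0.64, with 0.04 and 0.68 on the slides. By their representing probes, Deaf1 (-0.35 ± 0.62) and Hipk2 (0.02 ± 0.59) had overlapping arrays. Without Meis1-negative replicate 1, Prkdc differed by 0.57, Deaf1 by -0.16 and Hipk2 by -0.22.

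Without overlap between the gates, 4 of 7 members (Aire, Fezf2, Sirt1 and Prkdc) were higher in Meis1-low, against 23.5% of all genes tested. Chd4 was lower in the same sense, as were 15.8% of genes. Aire and Prkdc were separated only narrowly. The nearest Meis1-low and Meis1-negative arrays read 3.87 and 3.84 for Aire, and -1.33 and -1.37 for Prkdc. That Prkdc gap is smaller than the SDs of 0.13 and 0.12 between its spots on those arrays. With 7 members chosen by name, no test was made of these counts. No member and no gene on the array passed the adjusted threshold in limma, where 915 genes (5.03%) were higher and 559 (3.07%) lower at an unadjusted p under 0.05.

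Meis1-high and Meis1-negative are both gates of small cells and differ in the reporter. By representing probes, no member separated these gates. Arrays without overlap were found for 0 of 7 in either direction, against 19.3% of genes higher and 19.9% lower. Aire differed by -0.59 ± 0.996, with -0.03 on slide 1 and -1.15 on slide 2. It differed by -1.90 without Meis1-negative replicate 1 and by 0.72 without Meis1-negative replicate 2, so that its sign rests on which Meis1-negative array is used.

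Fezf2 was higher in Meis1-high by 1.04 ± 0.79 (95% interval -0.82 to 2.90, adjusted p = 0.695 in limma), but the slides opposed each other, with 2.396 and -0.32. Without Meis1-negative replicate 1 it differed by 0.22, and without replicate 2 by 1.86. Sirt1 was lower by -0.83 ± 0.71, with -0.48 and -1.18 on the slides, by -1.53 without Meis1-negative replicate 1 and by -0.13 without replicate 2.

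By their representing probes, Deaf1, Hipk2, Chd4 and Prkdc had differences between -0.37 and 0.25 and adjusted p values from 0.852 to 0.978 in limma. Leaving out Meis1-negative replicate 1 moved them to 0.44, -0.30, -0.17 and 0.27. No gene on the array passed the adjusted threshold in limma, with 1039 (5.71%) higher and 878 (4.82%) lower at an unadjusted p under 0.05. All 19 thymocyte markers were lower in Meis1-high, with a median of -3.05 (-1.196 without Meis1-negative replicate 1), and all 10 epithelial markers higher, with a median of 0.93 (0.16). All 10 immature medullary genes were also higher in Meis1-high, with a median of 2.65 (1.65). Their part in the members' differences was not tested.

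Sirt1, Deaf1, Hipk2 and Chd4 were read by more than 1 probe, and the probes were not alike in every gene.

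**Figure D3:**
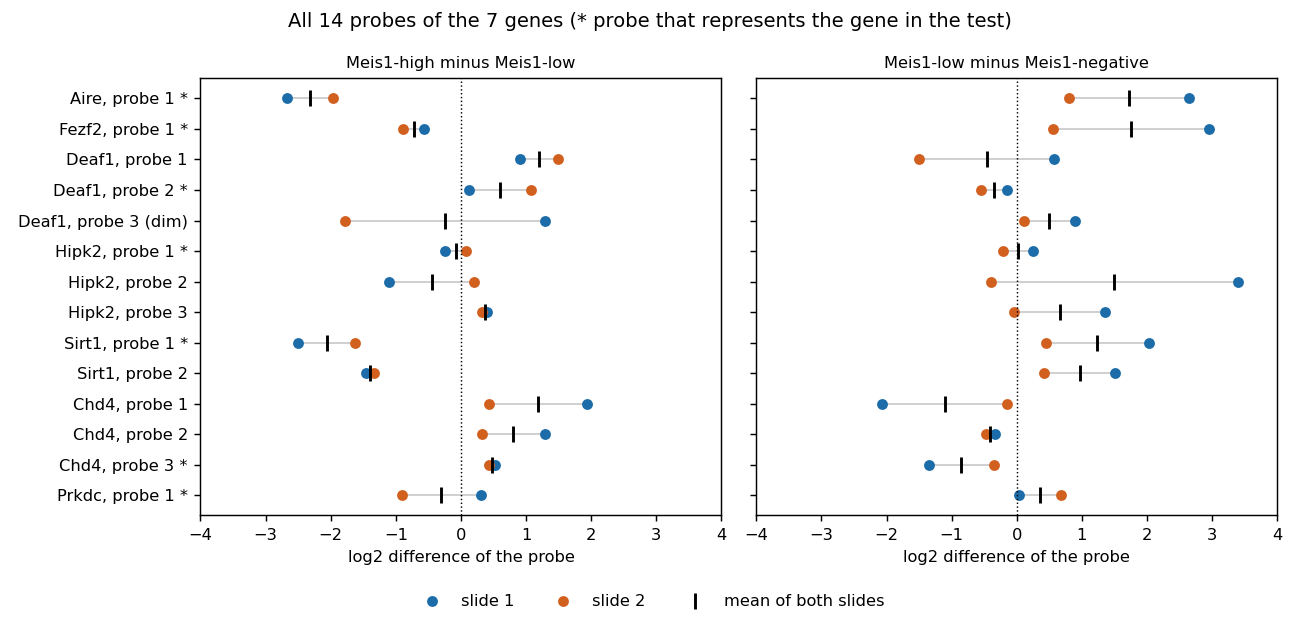
Log2 difference of each of the 14 probes, Meis1-high minus Meis1-low (left) and Meis1-low minus Meis1-negative (right), on slide 1, on slide 2 and as the mean of both. All 3 Chd4 probes lie above 0 on both slides on the left and below 0 on both slides on the right, while the second Hipk2 probe reaches 3.40 on slide 1 on the right.

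The Chd4 probes gave the same direction in 2 of the comparisons. Their differences between Meis1-high and Meis1-low were 1.19 ± 0.73 (A_51_P454280), 0.80 ± 0.63 (A_52_P298043) and 0.48 ± 0.63 (A_52_P58281), each above 0 on both slides. Between Meis1-low and Meis1-negative they were -1.11, -0.40 and -0.85, each below 0 on both slides. Between Meis1-high and Meis1-negative they disagreed in sign, with 0.08, 0.40 and -0.37. None passed the threshold in the fit of all probes (adjusted p from 0.557 to 0.976 in limma).

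The Deaf1 probe A_51_P275658 gave a wider difference than the representing probe between Meis1-high and Meis1-low, 1.196 ± 0.71, with 0.90 and 1.49 on the slides (adjusted p = 0.546 in limma). Between Meis1-high and Meis1-negative that probe gave 0.74 ± 0.71, with 1.48 and -0.0066 on the slides. The untested Deaf1 probe (A_52_P545575) was well above background only on replicate 2 of Meis1-low and of Meis1-negative, and no fold is given for it. Hipk2 was flat by its representing probe, but A_51_P318292 read -3.02 on Meis1-negative replicate 1 and between -0.71 and 0.83 on the other 5 arrays. The third Hipk2 probe, A_52_P554845, was also lowest on that array, at 1.59, with the others between 2.31 and 3.35. The representing probe read 3.79 there, its lowest level too, 0.47 below Meis1-negative replicate 2.

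The genes whose levels ran most like those of Aire over the 6 arrays were Bsdc1 (Pearson r = 0.999), Cdh17 (0.994), Gldc (0.994), Synj2 (0.993) and Nrxn3 (0.993). They were picked from 8444 genes with an SD over the arrays of at least 0.5 times that of Aire, of which 262 had an r over 0.95. Cdh17, an intestinal cadherin, read -0.80 and 0.34 on Meis1-low arrays, -4.62 and -0.39 on Meis1-negative arrays, and -4.15 and -2.33 on Meis1-high arrays. The genes most like Fezf2 among 11520 were Ren2 (0.999), Enho (0.997), Mrln (0.996), Arhgdig (0.995) and Sftpa1 (0.995), and 166 had an r over 0.95. Sftpa1, a lung surfactant protein gene, read -0.67 and -1.24 on Meis1-low arrays, -4.26 and -2.13 on Meis1-negative arrays, and -1.33 and -2.64 on Meis1-high arrays. Cdh17, Gldc and Nrxn3 lay under the lowest signal well above background on replicate 1 of Meis1-high and of Meis1-negative. Ren2, Mrln, Arhgdig and Sftpa1 lay under it on Meis1-negative replicate 1. The r values of these genes thus rest in part on readings near background. All the genes named here share the 6 arrays and their scaling. With so many genes to pick from, the values of r describe these arrays only.

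Genes known to depend on Aire were lower in Meis1-high than in Meis1-low, as Aire itself was. Of 20 listed Aire-dependent antigens 17 were measured, and 16 lay lower in Meis1-high, 15 without overlap against 31% of all genes tested. The median log2 difference of the 17 was -2.82, against -0.15 over all genes. On Meis1-high replicate 1, 12 of the 17 were well above background, with 17 on replicate 2 and 16 and 17 on the Meis1-low arrays. Genes not well above background on a Meis1-high array passed the filter through another gate. The direction, the lack of overlap and the median are thus set in part by the filter and by readings near background. None of the 17 passed the threshold, and the median was -1.12 with normexp background correction. Sst, which encodes somatostatin, had a difference of -3.64 ± 0.93, Csn2, a casein of milk, -2.59 ± 0.67, and S100a8, a myeloid calcium-binding protein, -3.07 ± 0.75 (adjusted p = 0.254 for each in limma). Muc6, a gastric mucin chosen after its values were seen, was the exception, at 0.89. Between Meis1-low and Meis1-negative 16 of 17 were higher in Meis1-low, with a median of 1.87, which was 0.88 without Meis1-negative replicate 1 and 1.03 with normexp. On the Meis1-negative arrays 13 and 17 were well above background, so the filter bears on this direction too.

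Fezf2-dependent antigens showed the same direction in these gates. Of 7 measured genes 6 lay lower in Meis1-high than in Meis1-low, with a median of -2.12 (-1.21 with normexp), and none passed the threshold. Apoc3, an apolipoprotein, differed by -2.74 ± 0.64, and Apob, the main apolipoprotein of liver lipoproteins, by -4.54 ± 1.37. Apob was the lowest of the list on Meis1-high replicate 1, at -5.40, where 6 of the 7 genes were well above background. The size of its difference thus rests in part on a reading near background. The count of 6 lower genes is likewise set in part by the filter. The exception in direction was the skin keratin Krt10, at 0.72. All 7 were higher in Meis1-low than in Meis1-negative, with a median of 2.33, or 1.11 without Meis1-negative replicate 1 and 1.09 with normexp. Fezf2 itself differed by -0.72 in the first of these comparisons and by 1.76 in the second.

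Mature medullary TEC genes gave the setting in which Aire is normally read. All 18 lay lower in Meis1-high than in Meis1-low, with a median of -1.44, and none passed the threshold. Dendritic cell and macrophage genes also lay lower there (9 of 11, median -1.69), and the part of such cells in this list was not tested. The costimulatory ligand gene Cd86 differed by -4.83 ± 1.80, Tnfrsf9, a receptor of the TNF family, by -2.43 ± 0.75, and the chemokine gene Ccl17 by -3.07 ± 1.21. Cd86 was the lowest of the list on Meis1-high replicate 1, at -5.27, where 16 of the 18 genes were well above background. The size of its difference thus rests in part on a reading near background. The count of 18 lower genes is likewise set in part by the filter. Between Meis1-low and Meis1-negative 17 of 18 were higher in Meis1-low, with a median of 1.18, but the median was -0.11 without Meis1-negative replicate 1 and 0.63 with normexp. The exception was Ccl17, at -0.31, with 2.14 on slide 1 and -2.76 on slide 2.

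Upstream of Aire, RANK, CD40 and the lymphotoxin beta receptor signal through TRAF proteins and NF-kappaB to switch the gene on. Of 21 listed genes of this route 17 lay lower in Meis1-high than in Meis1-low, 12 without overlap against 31% of all genes tested. Their median was -0.65 (-0.995 without Meis1-high replicate 2), and none passed the threshold. On each Meis1-high array 18 of the 21 were well above background, with 20 and 19 on the Meis1-low arrays. The direction and lack of overlap are thus set in part by the filter. Of these genes, Cd40 and Tnfrsf11a also stand in the list of mature medullary genes. Tnfrsf11b, the decoy receptor for RANK ligand, differed by -2.53 ± 0.89, the adaptor gene Traf6 by -1.91 ± 0.83, and Lta, a lymphotoxin chain, by -3.21 ± 0.97. The SD of Lta between the Meis1-high arrays was 1.74. Between Meis1-low and Meis1-negative the median was 0.65, and 0.07 without Meis1-negative replicate 1.

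Further partners of Aire lay on both sides. Of 28 genes, such as the Ku subunit gene Xrcc5 (1.12 ± 0.75) and the chromatin reader Bptf (0.93 ± 0.62), 19 lay higher in Meis1-high than in Meis1-low, with a median of 0.11, which was 0.0387 without Meis1-low replicate 2 and 0.17 with quantile normalization. Without overlap, 5 of the 28 were higher and 5 lower, against 22.7% and 31% of all genes tested. Top2a, a topoisomerase that is also a cell cycle gene, differed by -1.54 ± 0.62. Of 12 measured NuRD subunits, the complex of Chd4, 8 lay higher in Meis1-high, with a median of 0.18, which ranged from 0.17 to 0.63 with an array left out, highest without Meis1-high replicate 2, and was 0.08 with normexp and 0.69 as means of probes. Chd3, the paralog of Chd4, differed by 1.196 ± 0.66 and the methyl-CpG-binding protein gene Mbd2 by 2.22 ± 0.94. None of these genes passed the threshold. Against Meis1-negative, 25 of 28 partners and 11 of 12 NuRD subunits lay lower in Meis1-low, with medians of -0.53 and -0.74, which were -0.06 and -0.12 without Meis1-negative replicate 1.

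**Figure D4:**
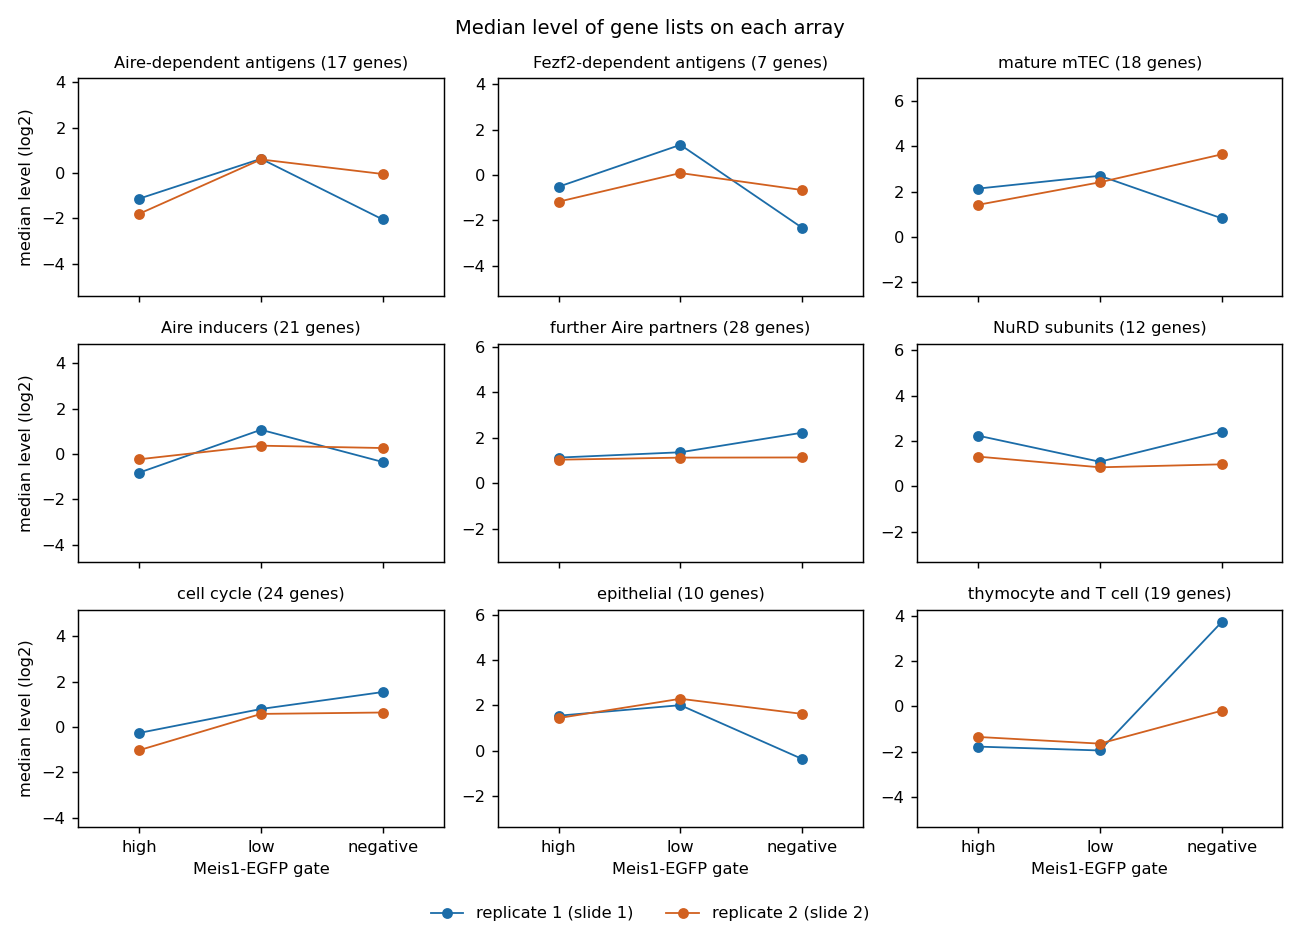
Median level (log2 signal relative to the array's 75th percentile) of 9 gene lists on each array by gate, with the arrays of a slide joined; all panels span the same number of log2 units. Aire-dependent antigens are highest in Meis1-low, and thymocyte and T cell markers reach 3.72 on Meis1-negative replicate 1 against -1.94 to -0.19 on the other arrays.

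On Meis1-negative replicate 1 these lists split in opposite directions. Against replicate 2, 0 of 18 mature medullary genes were higher (median -2.56), 1 of 7 Fezf2-dependent antigens (-2.44) and 3 of 17 Aire-dependent antigens (-1.65), as Aire (-2.62), Fezf2 (-1.64) and Sirt1 (-1.40) were lower. In contrast, 23 of 28 further partners (median 1.14), 9 of 12 NuRD subunits (1.33) and Chd4 (0.41) were higher on replicate 1. The 20 of 24 cell cycle genes and 16 of 19 thymocyte markers that were higher there move with the partner genes, and the part of thymocyte RNA in this split was not tested.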

How the data were processed

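RNA of 6 pools was measured on 6 one-colour arrays. Per the file headers, the scanner software was Agilent Feature Extraction (version 9.5.3.1), and its deposited signal is an intensity after background subtraction, with probes placed on mm9. The authors' deposited value table holds log2 values with each probe centred (a median of 0 for 100.0% of probes), and served as an alternative. Control spots and spots marked as outliers were left out, spots were averaged per probe, and the log2 signals were set relative to the 75th percentile of their array. A probe was kept if 1 gate had it well above background on each array (26590 probes), and of a gene's probes the brightest on average was used, for 18207 genes in all. Groups were taken from the labels and compared with limma 3.58.1 in R 4.3.3, with 1 mean per gate over all 6 arrays and an adjusted p threshold of 0.05. The number of arrays limits the precision.

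The members, lists, tests and alternatives were chosen with earlier results of these data known. All 14 member probes, up to 4 members with the smallest p per list and comparison, fixed marker genes and the 5 genes most like Aire and Fezf2 could be named. Same-numbered replicates share a slide and scan; their differences correlated at 0.209, 0.128 and 0.125 across genes for the 3 pairs of gates. The labels do not say that pools were paired. In simulated data for Meis1-high against Meis1-negative, with 18207 genes, 0 of 50 genes were called at a true size of 1 (log2), 1 of 50 at 2, 27 of 50 at 4 and 47 of 50 at 6, and 0 unchanged genes. Probe sequences are those of the scanner files. Python 3.11.15 and matplotlib 3.10.9 drew the figures.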

Additional observations from a re-analysis of the deposited data

How the results depend on the processing

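No gene passed the threshold in any comparison as reported, and most alternatives also gave 0. Normexp background correction called 290 genes for high minus low, 372 for high minus negative, 143 for low minus negative and 569 by the F test, and median scaling called 78, 14 and 68 in the last 3 of these. With an array left out in turn, the counts ranged from 0 to 960 for high minus negative, from 0 to 1268 for low minus negative and from 0 to 977 by the F test, the highest each time without Meis1-negative replicate 2. The lone array is then assumed to vary like the others. Normexp was the 1 alternative that called members: Aire (-2.11) and Sirt1 (-1.85), in high minus low. With the replicate number as a block, the difference of Aire stayed at -2.32 (adjusted p = 0.262 in limma) and that of Sirt1 at -2.06 (0.270), and no call changed. Signs turned only where the reported difference was within -0.60 to 0.60. In high minus low, Deaf1 was -0.0104 with normexp and Hipk2 0.12 with quantile normalization. In high minus negative, Hipk2 was 0.16 with quantile normalization and 0.67 as a mean of probes, Chd4 0.23 with normexp and 0.0363 as a mean of probes, and Prkdc -0.0043 with quantile normalization and -0.0624 with median scaling. In low minus negative, Deaf1 was 0.29 and Hipk2 -0.11 with normexp, and Hipk2 -0.0844 with median scaling. With an array left out, high minus negative was -1.90 to 0.72 for Aire, -0.30 to 0.17 for Hipk2 and -0.43 to 0.55 for Prkdc. High minus low was then -3.07 to -1.57 for Aire, -1.26 to -0.19 for Fezf2, 0.20 to 0.998 for Deaf1, 0.18 to 0.77 for Chd4, -0.24 to 0.0784 for Hipk2 and -0.79 to 0.19 for Prkdc, and low minus negative was -0.75 to 0.0463 for Deaf1 and -0.22 to 0.25 for Hipk2. The cause of these changes was not tested. Relative to the reported fit, median scaling shifted the median of all genes by -0.12 in high minus negative and by -0.10 in low minus negative, and normexp by 0.17 and 0.13. The share of spots well above background, 53.1% to 69.6% over the arrays, limits what can be read of dim probes such as the untested Deaf1 probe.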
